A study of Mus musculus with 8 samples.

Results

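The genes described here are 10 components of the circadian clock: Clock, Per1, Per2, Per3, Cry1, Cry2, Nr1d1, Nr1d2, Dbp and Tef. They were chosen by name, and a gene was read from the probe sets that the platform annotation assigns to it alone. All 10 were on the array, with 24 such probe sets, and all 10 were among the 12540 genes tested. The samples were peritoneal macrophages from mice given thioglycollate, an irritant that draws inflammatory macrophages into the peritoneal cavity. The mice were labelled Zc3h12a KO, here KO, or wild-type, here WT. The gene's product, Regnase-1, is an RNase that cleaves mRNAs of inflammatory proteins. Cells of each genotype were taken unstimulated (0 h) and after 1, 2 and 4 h with 100 ng/ml LPS, the bacterial lipopolysaccharide sensed by TLR4, and each of the 8 samples was read on 1 array.

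No group had a replicate, so every error below comes from a fit over all 8 arrays and may be technical in part. How many mice were used and the time of day at collection are not given in the sources used here. No array holds unstimulated cells at 1, 2 or 4 h, so an effect of LPS and one of hours in culture cannot be told apart. These are cell populations, in which fewer cells of a type and less RNA per cell cannot be told apart either. All 8 macrophage markers examined (among them Adgre1, Csf1r and Cd68) lay above background on every array. The brighter Zc3h12a probe set read 6.73, 7.70, 8.75 and 8.50 in KO cells at 0, 1, 2 and 4 h, against 6.12, 8.02, 8.87 and 8.57 in WT cells. Whether it lies within the deletion is not given in the sources used, so it checks nothing about the labels, on which every KO and WT direction rests.

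The clock is a feedback loop of transcription. CLOCK pairs with BMAL1 to activate genes through E-box sequences. Among these genes are the Per and Cry repressors, whose proteins then inhibit the pair, and Nr1d1 and Nr1d2, which encode the nuclear receptors REV-ERBα and REV-ERBβ and repress Bmal1. Dbp and Tef encode transcription factors of the PAR bZIP family, which activate output genes through D-box sequences, and Dbp is itself a direct E-box target. Macrophages are known to hold a working clock, and REV-ERB proteins repress inflammatory genes in them.

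The promoter sequences of 3 members are shown because they carry the sites of this loop and because Per3 and Tef fell after LPS while Cry1 did not. Each is a RefSeq window on GRCm38.p6 from 250 bases before to 50 bases after the gene's start, written on the gene's own strand, with the motifs in capitals. Motifs were searched on both strands: the E-box CACGTG, the D-box TTATGTAA or TTACGTAA, the ROR element TAGGTCA, at which REV-ERB proteins also bind, and the cAMP response element TGACGTCA. The Per3 window holds the D-box letters at 2 places, the Tef and Cry1 windows an E-box each.
Per3, chr4:151044616-151044915, minus strand: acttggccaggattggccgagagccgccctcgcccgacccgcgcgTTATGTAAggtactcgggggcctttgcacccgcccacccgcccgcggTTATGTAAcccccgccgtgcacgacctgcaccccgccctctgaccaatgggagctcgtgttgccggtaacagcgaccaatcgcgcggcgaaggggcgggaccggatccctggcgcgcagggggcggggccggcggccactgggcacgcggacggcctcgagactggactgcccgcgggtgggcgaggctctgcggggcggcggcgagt
Tef, chr15:81802423-81802722, plus strand: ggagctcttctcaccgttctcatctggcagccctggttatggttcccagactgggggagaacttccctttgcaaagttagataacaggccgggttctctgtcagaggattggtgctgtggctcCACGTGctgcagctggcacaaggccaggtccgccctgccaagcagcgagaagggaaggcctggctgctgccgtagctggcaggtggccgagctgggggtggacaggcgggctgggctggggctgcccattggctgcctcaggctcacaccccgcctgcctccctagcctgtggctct
Cry1, chr10:85185005-85185304, minus strand: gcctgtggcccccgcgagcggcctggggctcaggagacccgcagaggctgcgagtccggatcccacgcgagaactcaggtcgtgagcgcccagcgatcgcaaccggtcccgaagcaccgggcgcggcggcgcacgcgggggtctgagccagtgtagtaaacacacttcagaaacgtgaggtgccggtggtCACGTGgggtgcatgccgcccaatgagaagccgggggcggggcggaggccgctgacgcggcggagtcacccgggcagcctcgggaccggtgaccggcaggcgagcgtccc

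In the Per3 window the D-box letters TTATGTAA begin 205 and 158 bases before the gene's start. A D-box was found in 1.06% of all 32851 windows of that length, and 0.0244% held 2 or more. In the Tef window shown the E-box begins 127 bases before the gene's start, and in the Cry1 window 60 bases before it. The other Tef window and 1 of the Per1 windows hold an E-box as well, and 7.15% of all windows do. RefSeq windows were found for 9 members. None of the 4 motifs was found in the windows of Cry2, Clock, Nr1d1, Nr1d2 and Dbp. The ROR element was in 2.61% and the cAMP response element in 1.79% of all windows, and in none of the members'. A match is a description of letters and does not show binding.

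After LPS, transcripts of the clock outputs Dbp and Tef and of the repressors Per3 and Nr1d2 were lower in both genotypes. Values are log2 signals after RMA, in which 1 unit is a doubling, and the background of an array is its highest reading among probe sets for absent bacterial transcripts, between 2.96 and 3.26. By limma, with adjustment over all 12540 genes, Dbp, Nr1d2, Per3 and Tef fell at 2 h and at 4 h. Cry1 did not pass the test at any time with the RMA scale as deposited, and Clock rose at 2 h only, close to the threshold. Per1, Per2, Cry2 and Nr1d1 read between 2.91 and 3.67 on all 8 arrays, so close to background that a fall could hardly be measured, and none of them rose by the test.

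**Figure D1:**
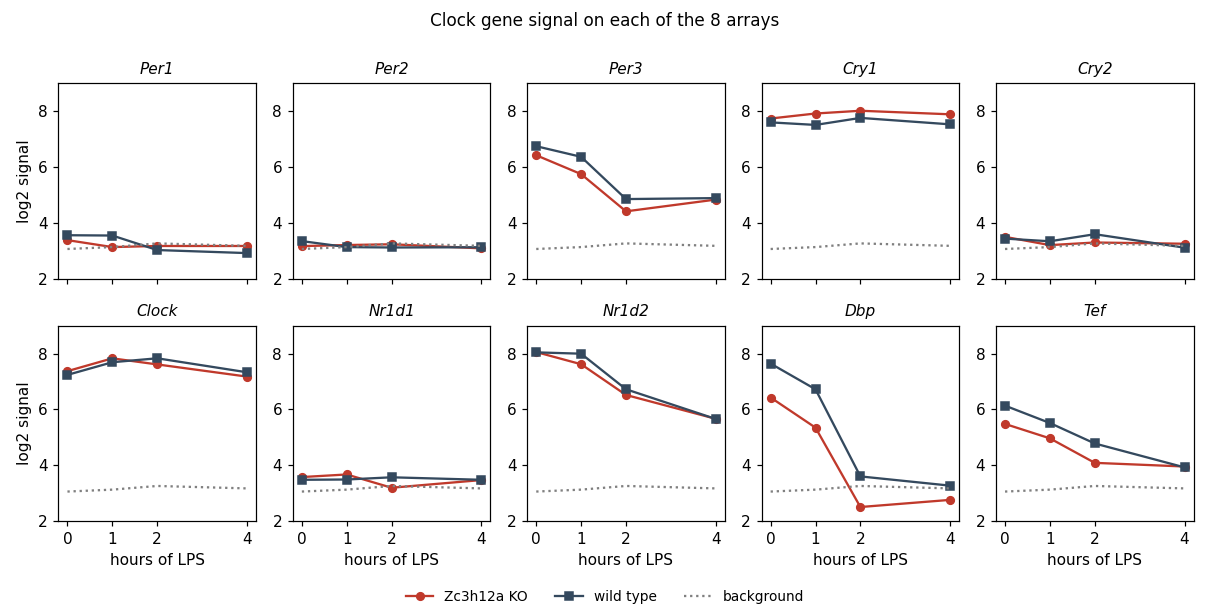
Log2 signal of each clock gene (its brightest probe set) against hours of LPS, 1 point per array, in KO cells (red circles) and WT cells (dark squares). The dotted line is the higher of the backgrounds of the arrays of that time. In both genotypes the 0 h points of Dbp, Per3, Tef and Nr1d2 lie above those of 2 and 4 h, Clock and Cry1 stay above 7, and the other 4 genes lie near background.

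Dbp had the deepest fall of the 10. It read 6.43, 5.35, 2.50 and 2.76 in KO cells at 0, 1, 2 and 4 h, against 7.64, 6.72, 3.60 and 3.27 in WT cells. The readings of 2 and 4 h lay below every reading of 0 and 1 h in both genotypes. In KO cells they were below background, so there the fall was at least 3.22 at 2 h and at least 3.26 at 4 h, against 4.04 and 4.37 in WT cells. Over both genotypes Dbp was at least 12.4-fold lower at 2 h and at least 14.1-fold lower at 4 h (limma differences of readings -3.98 and -4.02, SE 0.21 each, adjusted p = 7.83e-05 and 3.73e-05).

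At 1 h Dbp was already called lower by limma, with a difference of -0.9999 (SE 0.21, adjusted p = 0.0338), but the call held in only 5 of 17 alternatives. This early call was lost without any single array of 0, 1 or 2 h (adjusted p up to 0.22). The step between 1 and 2 h was larger (-2.98, SE 0.21, adjusted p = 0.000544). Between 2 and 4 h the readings differed by -0.04 (SE 0.21), but in KO cells both were below background. These values come from a probe set whose probes can match several transcripts. The second Dbp probe set read 3.06, 3.06, 2.76 and 2.78 in KO cells and 3.73, 3.19, 2.69 and 2.91 in WT cells. Its difference from 0 h was -0.27 at 1 h (adjusted p = 0.451), -0.67 at 2 h (adjusted p = 0.027) and -0.55 at 4 h (adjusted p = 0.0522). Of its 8 readings, 3 were above background.

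Tef, the other PAR bZIP gene, fell at 2 and 4 h. It read 5.48, 4.96, 4.09 and 3.95 in KO cells at 0, 1, 2 and 4 h, against 6.13, 5.51, 4.78 and 3.92 in WT cells. Each reading was below the one before it in both genotypes, and the genotypes met at 4 h. The limma difference from 0 h was -0.57 (SE 0.19, adjusted p = 0.128) at 1 h, -1.37 (adjusted p = 0.00233) at 2 h and -1.87 (adjusted p = 0.000478) at 4 h, a 3.65-fold fall. The step from 1 to 2 h also passed (-0.80, adjusted p = 0.0303), though not without any single array of 0, 1 or 2 h. The other 2 Tef probe sets lay between 2.84 and 3.49, near background.

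Per3, a Period family member that is dispensable for core rhythms in mice, fell at 2 and 4 h. It read 6.42, 5.74, 4.41 and 4.83 in KO cells at 0, 1, 2 and 4 h, against 6.74, 6.36, 4.85 and 4.88 in WT cells. All 4 readings of 2 and 4 h were below all 4 of 0 and 1 h. The differences from 0 h were -0.53 (SE 0.15, adjusted p = 0.0873) at 1 h, -1.95 (adjusted p = 0.000276) at 2 h and -1.72 (adjusted p = 0.000258) at 4 h. The fall was 3.87-fold at 2 h. From 1 to 2 h the step was -1.42 (adjusted p = 0.00215), and from 2 to 4 h it was 0.23 (SE 0.15, adjusted p = 0.366). The other 5 Per3 probe sets read 3.50 or less on every array.

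Nr1d2, the REV-ERBβ gene, fell at 2 h and again between 2 and 4 h. It read 8.05, 7.62, 6.52 and 5.66 in KO cells at 0, 1, 2 and 4 h, against 8.04, 7.996, 6.72 and 5.66 in WT cells. The genotypes were within 0.01 of each other at 0 h (8.05 and 8.04) and at 4 h. The difference from 0 h was -0.24 (SE 0.14, adjusted p = 0.335) at 1 h, -1.43 (adjusted p = 0.00054) at 2 h and -2.39 (adjusted p = 4.98e-05) at 4 h, a 5.23-fold fall. The step from 2 to 4 h was -0.96 (SE 0.14, adjusted p = 0.00482). Nr1d2 was the one member that passed in that step, where 9.72% of all genes were lower. Its other probe set was below background on all 8 arrays.

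Nr1d1, which encodes REV-ERBα, could not be followed in the same way. It read 3.58, 3.67, 3.19 and 3.47 in KO cells, against 3.48, 3.49, 3.57 and 3.48 in WT cells. The KO reading of 2 h was below background and the others at most 0.62 above it. Its differences from 0 h were 0.05, -0.15 and -0.05 (SE 0.16 each, adjusted p from 0.479 to 0.871).

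Of the activator side, Clock, the partner of BMAL1, read 7.37, 7.83, 7.61 and 7.18 in KO cells at 0, 1, 2 and 4 h, against 7.24, 7.69, 7.83 and 7.33 in WT cells. The readings of 1 and 2 h were above those of 0 and 4 h in both genotypes. The difference was 0.46 (SE 0.14, adjusted p = 0.0944) at 1 h, 0.42 (SE 0.14, adjusted p = 0.04996) at 2 h and -0.05 (adjusted p = 0.79) at 4 h. The call at 2 h was lost without any 1 of the 8 arrays (adjusted p from 0.057 to 0.268). It reversed to -0.10 (adjusted p = 0.436) when all 4 Clock probe sets were averaged. A dimmer Clock probe set read 4.05, 3.87, 3.41 and 3.19 in KO cells and 3.84, 3.61, 3.66 and 3.61 in WT cells, so its readings after LPS were below that of 0 h in each genotype.

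Cry1, a core repressor, had the narrowest range of the 6 members that lay well above background at 0 h. It read 7.73, 7.91, 8.01 and 7.88 in KO cells at 0, 1, 2 and 4 h, against 7.59, 7.502, 7.75 and 7.52 in WT cells. The differences from 0 h were 0.04, 0.22 and 0.04 at 1, 2 and 4 h (SE 0.12 each, adjusted p = 0.848, 0.175 and 0.807). On other scales it was higher. With centring on housekeeping genes it rose by 0.54 at 2 h (adjusted p = 0.0107) and 0.45 at 4 h (adjusted p = 0.0164). Cyclic loess gave a rise of 0.36 at 2 h (adjusted p = 0.0465). On the deposited scale 3 of the 10 housekeeping genes tested fell at 2 h and 5 at 4 h, so that centring raises other genes. With it 3785 of all 12540 genes were higher at 2 h and 5045 at 4 h. At 4 h the 95% interval of the limma estimate on the deposited scale ran from -0.24 to 0.32. Cry2, its paralog, lay between 3.20 and 3.49 in KO cells and between 3.11 and 3.59 in WT cells.

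Per1 and Per2, the core Period repressors, were near background throughout. Per1, which many stimuli induce as an early gene, read 3.38, 3.13, 3.17 and 3.17 in KO cells at 0, 1, 2 and 4 h, against 3.55, 3.54, 3.02 and 2.91 in WT cells. Both arrays of 2 h and both of 4 h lay below background. No Per1 difference from 0 h passed the test (-0.13, -0.37 and -0.42, SE 0.18 each, adjusted p from 0.104 to 0.704). The brightest of 3 Per2 probe sets read between 3.08 and 3.23 in KO cells and between 3.11 and 3.34 in WT cells. No rise of either gene passed the test, and a fall from readings this close to background could not be followed.

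**Figure D2:**
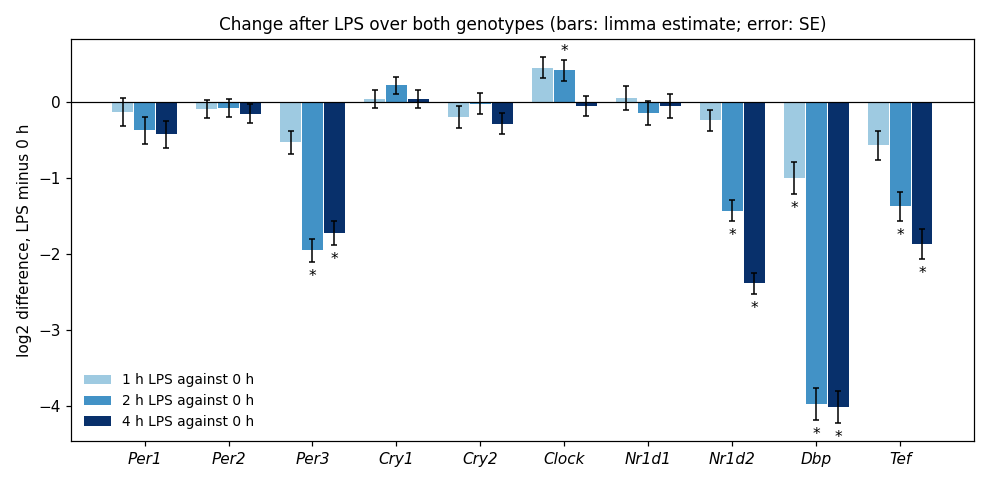
Log2 difference of each clock gene at 1, 2 and 4 h of LPS from 0 h (light to dark bars), estimated by limma over both genotypes, with error bars of 1 SE. Asterisks mark adjusted p-values under 0.05. Per3, Nr1d2, Dbp and Tef carry them at 2 and 4 h, Dbp also at 1 h and Clock, upward, at 2 h.

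Counted together, 1 of the 10 members fell and 0 rose at 1 h, where 6.62% of all genes were lower and 3.85% higher. At 2 h 4 fell and 1 rose, against 29.8% of all genes lower and 12% higher. At 4 h 4 fell and 0 rose, against 29.4% lower and 14.4% higher. From 1 to 2 h 4 fell, where 14.6% of all genes were lower. With about 3 in 10 genes lower at 2 and 4 h on the deposited scale, the counts of those times do not set the members apart from other genes. That share depends on the scale: with centring on housekeeping genes 2003 of 12540 genes were lower at 2 h and 1999 at 4 h. The members' median difference was -0.16, -0.26 and -0.35 at 1, 2 and 4 h, and that of all genes -0.09, -0.16 and -0.12. Averaging all probe sets of a gene, most of them near background, kept the 4 genes lower at 2 and 4 h but with smaller differences, such as -0.31 and -0.30 for Per3. The Actb control, a sign of RNA quality, had a gap between its 3' and 5' probe sets of 3.11 and 2.64 at 0 h in KO and WT cells, and between 2.30 and 2.61 in KO cells and between 2.16 and 2.43 in WT cells after LPS. The Gapdh gap was 3.31 and 3.01 at 0 h in KO and WT cells, and between 2.90 and 3.04 in KO cells and between 2.98 and 3.16 in WT cells after LPS. The part of RNA quality in these changes was not tested.

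The profiles of the 4 falling genes were compared as a description, by a measure that counts the size of a change as well as its timing. Over the 8 arrays, after each gene was centred on its own mean, the root mean square difference between Per3 and Tef was 0.30, that between Nr1d2 and Tef 0.37 and that between Per3 and Nr1d2 0.46. Dbp was 1.04 or more from each of them, but profiles were not scaled and its fall was deeper. Its readings ranged over 5.14, against 2.33 for Per3, 2.40 for Nr1d2 and 2.21 for Tef. A different time course of Dbp cannot be read from this distance. By the same measure, the genes closest to Dbp were Cd300lb (0.44), Sec14l1 (0.46) and Sesn1 (0.47). Those closest to Per3 were Rab3il1 (0.13), Jade2 (0.16) and Eif2ak3 (0.16), an endoplasmic reticulum stress kinase gene. Those closest to Tef were Slc66a2 (0.10), Prkra (0.11) and Ntpcr (0.14), and those closest to Nr1d2 were Rassf8, Myo18a and Inpp4a (0.15, 0.16 and 0.16). None of these 12 genes is a named part of the clock lists used here.

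**Figure D3:**
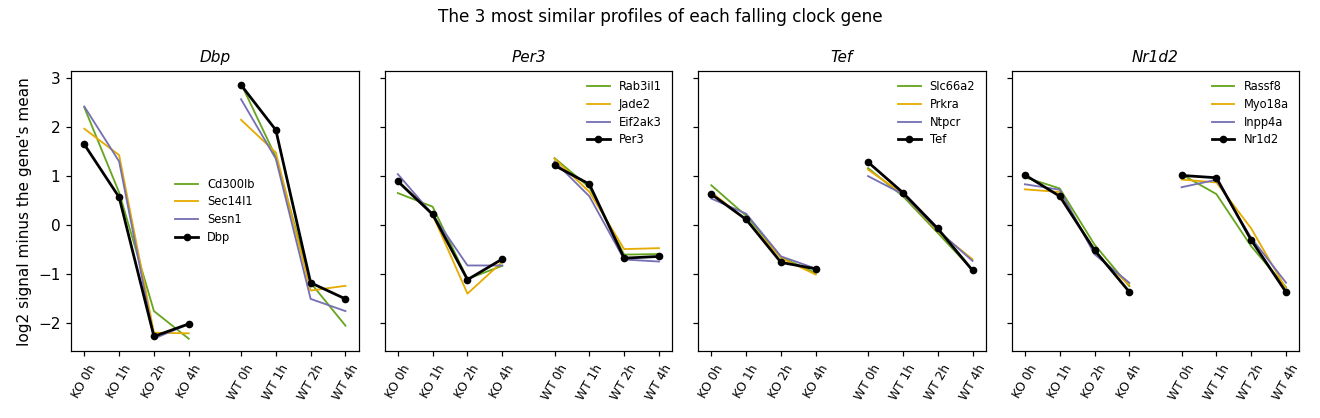
Centred log2 signal of Dbp, Per3, Tef and Nr1d2 (black) and of the 3 genes with the closest profile (colours), over the 4 KO arrays and then the 4 WT arrays in order of LPS time. Per3 levels off after 2 h, while Nr1d2 is still lower at 4 h than at 2 h.

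The genotype comparison asked whether clock genes differed between KO and WT cells on average over the 4 times. The 4 times served as its replicates, and whether they came from different mice or cell pools is not given in the sources used. An effect of genotype thus cannot be told apart from a difference between mice or preparations. Dbp was the one member past the threshold, and it was lower in KO cells. Its KO minus WT difference was -1.21 at 0 h and -1.37 at 1 h. At 2 and 4 h, with the KO reading below background, it was lower in KO by at least 0.39 and at least 0.10. The limma estimate on the readings was -1.05 (SE 0.15, adjusted p = 0.00893, lower in 4 of 4 times). The call was lost when readings were raised to the background (-0.77, adjusted p = 0.0803), without either 0 h array (adjusted p = 0.0516) and without time in the fit (adjusted p = 0.952). By the second Dbp probe set the difference was -0.22 (adjusted p = 0.315). Of all genes, 8.72% were lower and 4.75% higher in KO cells, against 1 and 0 of the 10 members.

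Tef and Per3 lay lower in KO cells without passing the test. Tef was below WT by 0.66, 0.55 and 0.69 at 0, 1 and 2 h and level at 4 h (estimate -0.47, SE 0.14, adjusted p = 0.0732). Per3 was below WT at all 4 times, by 0.05 to 0.62 (estimate -0.36, SE 0.11, adjusted p = 0.0797). Cry1 was above WT at all 4 times, by 0.14 to 0.41 (estimate 0.29, SE 0.08, adjusted p = 0.0679), and passed in 4 of 16 alternatives. Per1, Per2, Cry2, Clock, Nr1d1 and Nr1d2 had estimates between -0.14 and -0.01, with adjusted p of 0.358 or more. The members' median was -0.05 and that of all genes -0.04.

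Other features moved with genotype. The Actb gap was higher in KO cells at each time (3.11, 2.61, 2.52 and 2.30, against 2.64, 2.35, 2.43 and 2.16 in WT cells). The Gapdh gap did not share this pattern, since it was higher in KO cells at 0 h alone (3.31, 2.95, 3.04 and 2.90 in KO cells and 3.01, 2.99, 3.16 and 2.98 in WT cells). The summed log2 signal of 8 resident peritoneal macrophage markers was 68.5 to 71.1 in KO arrays and 52.8 to 54.1 in WT arrays. That of 8 stromal and mesothelial markers was 38.3 to 42.4 in KO arrays and 47.2 to 50.5 in WT arrays, with Msln at background on all arrays. The sum over 4 B cell markers was 18.5 to 19.3 in KO and 15.2 to 16.5 in WT arrays. Within it Ighm was higher in KO cells (8.72 to 9.45, against 5.29 to 5.58 in WT cells). Its probe sets differed: another read 10.19, 10.79, 10.14 and 10.69 in KO cells and 2.95, 3.04, 3.22 and 3.56 in WT cells. A further one read 3.72, 4.01, 3.36 and 3.91 in KO cells and 3.78, 3.50, 5.51 and 4.42 in WT cells. Cd79a and Cd79b read lower in KO cells at every time, but only 3 of 8 Cd79b readings were above background. Ms4a1 read 3.41, 3.28, 3.63 and 3.64 in KO cells, against 3.37, 3.35, 3.07 and 3.45 in WT cells. The sum over 5 neutrophil markers was 26.8 to 31.0 in KO and 23.5 to 26.0 in WT arrays, with Ltf at background. Most of that gap was S100a9, at 6.77, 7.69, 8.01 and 8.02 in KO cells and 3.58, 4.25, 5.18 and 4.98 in WT cells. S100a8 was nearly level (10.47 to 11.85 in KO and 10.39 to 11.79 in WT arrays). Ngp was higher in KO cells at every time, and Camp was lower at 0, 2 and 4 h. For 4 T cell markers the sum was 14.3 to 15.6 in KO and 13.7 to 14.0 in WT arrays, with Cd3g and Cd8a at background. Of the other 2, Cd3e was 5.53 to 6.35 in KO and 4.70 to 5.16 in WT arrays, and Cd3d lay near background. For 6 eosinophil and mast cell markers the sum was 20.0 to 21.1 in KO and 20.4 to 23.1 in WT arrays, with Prg2 and Mcpt4 at background. Their part in the Dbp difference was not tested.

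**Figure D4:**
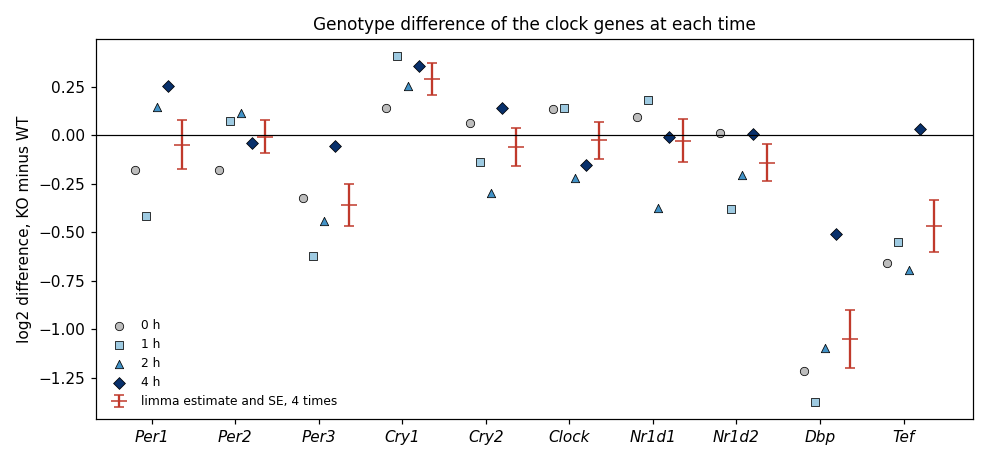
KO minus WT difference in log2 signal of each clock gene at 0, 1, 2 and 4 h (grey to dark symbols, 1 pair of arrays each), with the limma estimate over the 4 times and its SE in red. Dbp is below 0 at every time, Cry1 above 0 at every time, and Tef returns to 0 at 4 h.

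Whether LPS changed the genotype difference was tested with 2 residual degrees of freedom. By limma, 0 of the 10 members passed, 0 had an unadjusted p under 0.05 and 0% of all genes passed, with 434 at an unadjusted p under 0.05. The estimate for Dbp was 0.22 with a 95% interval from -0.71 to 1.15, and that for Nr1d2 -0.20 with an interval from -0.78 to 0.38. For Per3 the interval ran from -0.75 to 0.66 and for Tef from -0.59 to 1.09. Differences of that size between the genotypes' responses could thus not be detected. At 2 h Per3 was lower than at 0 h by 2.01 in KO cells and 1.89 in WT cells, and at 4 h by 1.59 and 1.86.

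The rest of the clock pathway was read from 32 further genes, of which 28 were tested. At 1 h 3 rose and 1 fell, at 2 h 5 rose and 8 fell, and at 4 h 6 rose and 9 fell, beside shares of all genes of 3.85% higher and 6.62% lower at 1 h, 12% and 29.8% at 2 h, and 14.4% and 29.4% at 4 h. The falls at 2 and 4 h were near those shares. Their median difference was 0.03, -0.13 and -0.13. In KO cells 2 were higher than in WT cells and 0 lower, where 4.75% of all genes were higher and 8.72% lower.

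Among the partners of Clock and the ROR activators, 0 of 5 tested genes changed at 1 or 2 h and 2 fell at 4 h. Of all genes, 10.5% and 41.8% changed at 1 and 2 h, and 29.4% were lower at 4 h. Rora, which activates Bmal1, read 6.56, 6.96, 6.77 and 5.05 in KO cells at 0, 1, 2 and 4 h, against 6.41, 6.64, 6.28 and 4.64 in WT cells. Its fall of 1.64 at 4 h (SE 0.12, adjusted p = 0.00013) came between 2 and 4 h. It was also higher in KO cells by 0.34 (adjusted p = 0.0491), but its other well-detected probe sets differed. One was lower in KO cells at all 4 times (5.66, 5.82, 5.58 and 4.62, against 5.88, 5.89, 5.799 and 4.84 in WT cells). Another was higher in KO cells at all 4 times (6.16, 6.03, 5.28 and 4.79, against 5.99, 5.75, 5.15 and 4.31 in WT cells). A dimmer one was higher in KO cells at 0 and 4 h only. Bmal1 itself (Arntl in the annotation) was dim, at 4.30, 4.52, 3.53 and 3.26 in KO cells and 3.71, 3.69, 3.55 and 2.94 in WT cells, and fell by 0.91 at 4 h (SE 0.20, adjusted p = 0.0124), where the WT reading was below background. Its second probe set read between 3.06 and 3.75, and was higher at 2 h than at 0 h in both genotypes. Npas2, a Clock paralog, was below background in both 2 h arrays and passed at no time.

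Among 9 repressors and output genes, 1 rose and 1 fell at 1 h, 2 rose and 4 fell at 2 h, and 2 rose and 3 fell at 4 h. The shares of all genes were 3.85% higher and 6.62% lower at 1 h, 12% and 29.8% at 2 h, and 14.4% and 29.4% at 4 h. Noct, a rhythmic gene that encodes Nocturnin, rose by 5.07 at 1 h (SE 0.18, adjusted p = 3.24e-05), 4.27 at 2 h and 2.53 at 4 h. It read 6.22, 11.02, 10.43 and 8.46 in KO cells and 5.85, 11.20, 10.19 and 8.68 in WT cells. Usp2, a rhythmic deubiquitinase gene, moved the other way, at 6.13, 5.25, 3.02 and 3.61 in KO cells and 5.73, 4.46, 3.15 and 3.54 in WT cells. It was below background in both 2 h arrays, which makes the fall there at least 6.47-fold. The limma test of that fall used the readings themselves, not this bound (adjusted p = 0.000275). Usp2 also fell by 1.07 at 1 h (adjusted p = 0.0326) and 2.35 at 4 h (adjusted p = 0.000334).

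Bhlhe40, an E-box repressor, fell by 0.77 at 2 h (adjusted p = 0.0211) and 1.56 at 4 h (adjusted p = 0.00101). It read 8.81 in KO cells and 8.82 in WT cells at 4 h, against 10.68 and 10.08 at 0 h. Wee1, a clock-controlled cell cycle kinase gene, dipped and came back, at 5.71, 5.34, 4.66 and 5.77 in KO cells and 6.17, 5.29, 4.03 and 5.88 in WT cells. It fell by 1.59 at 2 h (SE 0.25, adjusted p = 0.00328) and rose by 1.48 from 2 to 4 h (adjusted p = 0.00863). Nampt, which encodes the NAD-producing enzyme of the clock's metabolic loop, rose by 0.68 at 2 h (adjusted p = 0.00502) and 1.53 at 4 h (adjusted p = 0.000142). It was higher in KO cells by 0.68 (SE 0.08, adjusted p = 0.00534). A second Nampt probe set of like brightness differed less, at 8.71, 8.77, 9.24 and 9.73 in KO cells and 8.396, 8.44, 9.01 and 9.64 in WT cells. Nfil3, the repressor that competes with Dbp and Tef at D-boxes, read 7.49, 8.33, 7.63 and 6.75 in KO cells and 6.51, 7.78, 7.62 and 7.23 in WT cells, and passed at no time (1.05 at 1 h, SE 0.33, adjusted p = 0.104).

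Of 14 tested modifiers and partners of clock proteins, 2 rose and 0 fell at 1 h, 3 rose and 4 fell at 2 h, and 4 rose and 4 fell at 4 h. Beside them, 3.85% of all genes were higher and 6.62% lower at 1 h, 12% and 29.8% at 2 h, and 14.4% and 29.4% at 4 h. Timeless, known in mammals mainly for replication fork stability, was 2.50 higher at 4 h (SE 0.19, adjusted p = 0.000153), at 5.98 in KO cells and 5.55 in WT cells, after readings of 3.55 or less, some of them below background. Sfpq, a nuclear RNA-binding partner of PER complexes, rose by 0.64, 1.29 and 0.95 at 1, 2 and 4 h (adjusted p of 0.0178 or less). Gsk3b, a kinase that phosphorylates clock proteins, fell by 0.76 at 2 h and 1.05 at 4 h (adjusted p = 0.00314 and 0.000621). Of 3 further well-detected Gsk3b probe sets, 2 likewise read below their 0 h level at 2 h and at 4 h in each genotype. The third did not, at 6.15, 6.87, 6.68 and 6.36 in KO cells and 6.33, 6.87, 6.89 and 6.53 in WT cells.

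**Figure D5:**
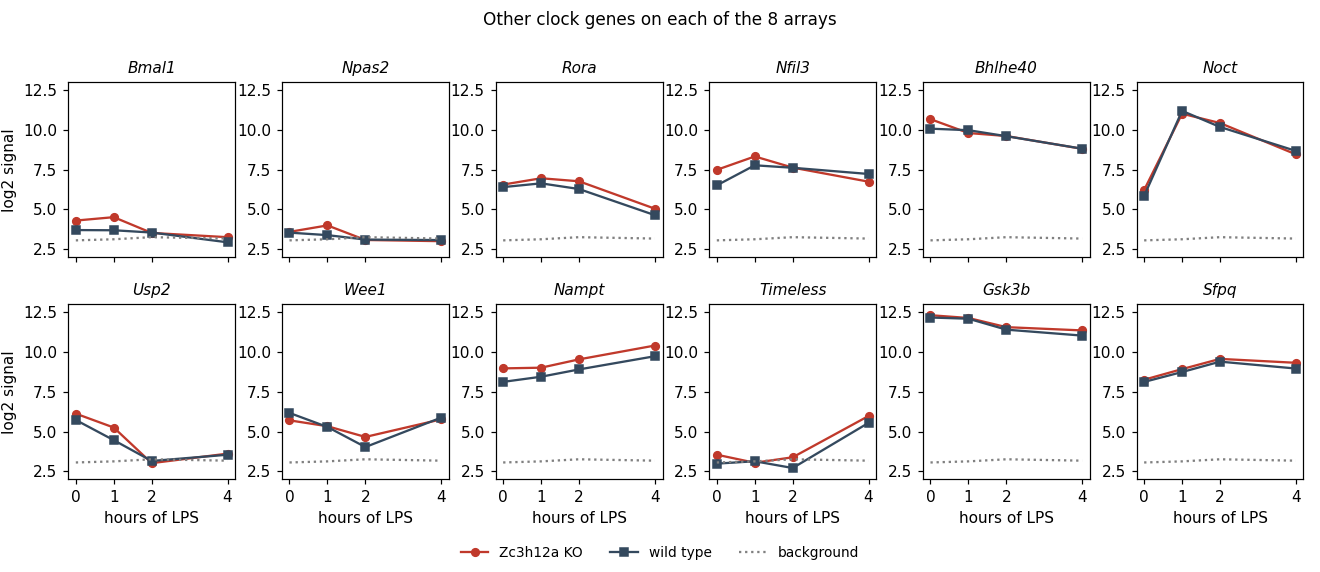
Log2 signal of 12 other clock genes (the brightest probe set of each) against hours of LPS, 1 point per array. KO cells are red circles and WT cells dark squares, with the background dotted. Noct peaks at 1 h, Usp2 reaches background at 2 h, Wee1 is lowest at 2 h, and Rora and Timeless change between 2 and 4 h.

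REV-ERB proteins are reported to repress Bmal1, Mmp9, Cx3cr1, Ccl2 and Il6. Of these 5 genes 2 rose at 1 and 2 h, and 3 rose and 1 fell at 4 h, where 14.4% of all genes were higher and 29.4% lower (3.85% and 12% were higher at 1 and 2 h). Ccl2 and Il6 are also well-known direct targets of LPS signalling. Ccl2, a monocyte attractant, rose by 4.42 at 4 h (adjusted p = 4.49e-06) and Il6 by 8.78 (adjusted p = 0.000163), although its WT reading at 0 h was below background. Mmp9, a matrix protease gene, rose by 0.41 (adjusted p = 0.0193) and Bmal1 was the one that fell. Mmp9 was lower in KO cells by limma (-1.68, SE 0.07, adjusted p = 0.000144), at 4.10, 3.67, 3.89 and 4.45, against 5.70, 5.34, 5.602 and 6.17 in WT cells.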

How the data were processed

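The deposited table holds log2 values of 45101 probe sets on 8 Affymetrix arrays. RMA (background correction, quantile normalization, probe set summary) is named in the submitters' processing notes, without a version. Quantile normalization hides a change in total mRNA. Probe sets with 1 symbol in the platform annotation (34945) were used. Each gene was its probe set of highest mean, kept when its second-highest array reached 3.16, the median of all values, which left 12540 of 18193 genes. limma 3.58.1 in R 4.3.3 was fitted to all genes with genotype and time (3 residual degrees of freedom), or with genotype by LPS (2). P-values were adjusted by Benjamini-Hochberg, with a threshold of 0.05, and errors are moderated standard errors. The fits were tested on simulated data. Background is the highest of 27 probe sets for bacterial transcripts, a rule added after seeing the data. The members and gene lists were chosen with earlier results of these data known. Named genes are all members, listed genes past the threshold by at least 1 log2 unit, 5 fixed clock genes, and the 3 closest profiles of members ranging over 2 units or more. The number of arrays limits the precision.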

Additional observations from a re-analysis of the deposited data

How the results depend on the processing

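Over 17 alternatives, the falls of Per3, Nr1d2, Dbp and Tef at 2 and 4 h kept their direction in 136 of 136 values. They passed in 135, the exception being Dbp at 4 h without probe sets ending in _s_at, _x_at or _a_at (adjusted p = 0.0522). Many of these alternatives leave the difference itself unchanged, such as the filters, the trend and robust settings, or leaving out an array of another time. There the direction was fixed in advance, so the 136 values are not independent checks. Centring on 10 housekeeping genes gave a median over all genes of 0.30 at 4 h, against -0.12, and numbers of lower and higher genes of 1999 and 5045, against 3689 and 1809. At 2 h they were 2003 and 3785 with that centring and 2865 and 1878 after cyclic loess, against 3740 and 1499. At 1 h they were 420 and 618 and 542 and 545, against 830 and 483, and between genotypes 1533 and 516 and 823 and 722, against 1094 and 596.

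The count of members past the threshold at 1 h was 0, against 1, with cyclic loess, housekeeping centring, averaged probe sets, no _s_at, _x_at or _a_at probe sets, no genotype term, or readings raised to the background (added after seeing the data), and 0 to 2 when arrays were left out. From 1 to 2 h it was 2 with averaged probe sets, against 4. It was 3 there with cyclic loess, housekeeping centring, no _s_at, _x_at or _a_at probe sets, or no genotype term, and 3 to 4 without single arrays. From 2 to 4 h the count was 2, against 1, with cyclic loess, a filter at the 75th percentile, or trend and robust settings, and 1 to 2 without single arrays. Between genotypes it was 3 with housekeeping centring, 2 with cyclic loess, the 75th percentile filter, averaged probe sets, or trend and robust settings, and 0 without _s_at, _x_at or _a_at probe sets, without the time term or with raised readings, against 1, and 0 to 2 without single arrays. It was 4 to 4 at both 2 and 4 h and 0 to 0 for the changed genotype difference without single arrays. Clock at 2 h reversed to -0.10 with averaged probe sets. Of 1118 values of single members under an alternative, 41 lost a call, 17 gained one and 66 changed the sign of a result not past the threshold. The changed genotype difference could not be fitted without a 0 h array. The genotype comparison already sets the KO and WT array of each time side by side through the time term, and without that pairing Dbp had an adjusted p of 0.952. No paired analysis by replicate number was possible because each group holds 1 array.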
